A study of Glycine max with 12 samples.

Results

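The genes described here encode 3 enzymes of the raffinose family pathway in soybean seed: the raffinose synthases RS2 (Glyma.06G179200) and RS3 (Glyma.05G003900), and stachyose synthase (Glyma.19G217700). They were chosen by identifier, by a rule that uses no measured value but was set with earlier results of these data known, and all 3 are among the 52872 genes of the count table. Their names come with that choice, because the table holds identifiers alone and 0 of its identifiers matched the RefSeq gene table for Glycine_max_v4.0. The identifiers place RS2 on chromosome 6, RS3 on chromosome 5 and stachyose synthase on chromosome 19.

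Raffinose family oligosaccharides are sucrose molecules carrying added galactose units. Raffinose synthase moves a galactosyl group from galactinol to sucrose, and stachyose synthase moves a further one from galactinol to raffinose, so the enzymes act in sequence on a shared donor. Soybean seeds build up raffinose and stachyose late in maturation, as they prepare to dry. People and other animals with a simple stomach lack the intestinal enzyme that digests these sugars. RS2 is known as the raffinose synthase with the main influence on raffinose and stachyose in soybean seed, since lines with a defective RS2 hold little of either, and defects in RS3 lower them further in such lines.

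Polyadenylated RNA was measured in developing seed of genotype 93Y21, taken 35 days after flowering, in 12 libraries. The nulls (6 libraries, line code 33A in their titles) were compared with 2 transgenic events of a construct with the GmUBQ promoter, e15 (3 libraries, code 15A) and e19 (3 libraries, code 19A), both marked HOM. The series title concerns a deletion variant of the methionine synthesis enzyme GmCGS2. The labels name no agent beyond the construct, do not give the relation of the nulls to the events, and say nothing of whether replicates are separate plants. The p-values therefore rest on the spread between libraries, and that spread may be technical. Each event is 1 transformation line, so an effect of the construct and a property of that line cannot be told apart.

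Library totals ranged from 19207771 to 23276877 counts. The nulls stood apart from each other in their composition: the TMM scaling factors, which correct library sizes for a few abundant genes taking more or fewer of the reads, were 1.10 to 1.12 in nulls 1 to 3 and 0.954 to 0.986 in nulls 4 to 6. They were 0.958 to 1.01 in e15. In e19 they were 0.935 and 0.907 in replicates 1 and 2 and 1.02 in replicate 3. The rule that chose the genes also sets nulls 1 to 3 and nulls 4 to 6 apart, and both sets are given. Values of e19 against all nulls and of e15 against e19 are also given without e19 replicate 3. Comparisons of e19 with either null set were not refitted without that library. The split was set with results of these data in view, so p-values between the null sets describe these 6 libraries. Those of an event against either null set likewise describe the libraries used. The labelled tissue was not checked against seed marker genes, as the identifiers are not paired with names.

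Levels are in CPM (counts scaled to a common library size) on TMM-scaled library sizes, given as mean ± SD. Gene lengths were not used here, so levels are compared between libraries and not between genes. All 3 genes had whole counts in every library (within 0.0005). How reads shared between gene copies were counted is not stated. All 3 passed the filter on low counts.

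RS2 was read 357 to 462 times per library and was the steadiest of the 3 genes, with a coefficient of variation of 11.7% over the 12 libraries, where counting alone gives 4.92%. It stood at 16.0, 16.6 and 16.3 CPM in nulls 1 to 3. In nulls 4 to 6 it stood at 21.3, 17.5 and 20.4 CPM. Nulls 1 to 3 were therefore low and close together, and every library of nulls 4 to 6 lay above them. The e15 libraries held 19.8, 19.5 and 17.5 CPM. The e19 libraries held 22.6, 21.5 and 18.2 CPM. On the TMM scale all 6 event libraries lay above nulls 1 to 3, and both events overlapped nulls 4 to 6. With library totals alone, e15 replicate 3 (17.7 CPM) lay below nulls 1 to 3 (18.0, 18.2 and 18.1 CPM). The share of all genes with every event library on 1 side of nulls 1 to 3 was not computed. In order of mean level, the groups were e19 (20.8 ± 2.26 CPM, n = 3), nulls 4 to 6 (19.7 ± 1.98 CPM, n = 3), e15 (18.97 ± 1.25 CPM, n = 3) and nulls 1 to 3 (16.3 ± 0.304 CPM, n = 3). The libraries of the first 3 groups overlapped.

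RS3 was read far less deeply, at 42 to 91 counts per library, so counting alone gives a coefficient of variation of 12.9% against the 21.2% observed. It stood at 3.79, 3.13 and 3.26 CPM in nulls 1 to 3. In nulls 4 to 6 it stood at 2.08, 2.72 and 2.76 CPM. The order of the null sets was thus opposite to that of RS2, with nulls 1 to 3 high and no overlap. The e15 libraries held 2.85, 2.04 and 1.82 CPM. The e19 libraries held 2.64, 2.37 and 3.22 CPM. Replicate 1 of e15 and replicate 3 of e19 were each the high library of their event, and replicate 3 of e19 fell within the range of nulls 1 to 3. The means ran from nulls 1 to 3 (3.40 ± 0.351 CPM, n = 3) through e19 (2.74 ± 0.434 CPM, n = 3) and nulls 4 to 6 (2.52 ± 0.380 CPM, n = 3) to e15 (2.24 ± 0.544 CPM, n = 3), and each group overlapped the next in this order.

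Stachyose synthase, the enzyme that uses the raffinose made by RS2 and RS3, was read 103 to 196 times per library. It stood at 7.42, 7.63 and 7.99 CPM in nulls 1 to 3. In nulls 4 to 6 it stood at 4.86, 6.61 and 6.01 CPM. As for RS3, nulls 1 to 3 were the high set and did not overlap nulls 4 to 6. The e15 libraries held 5.34, 4.88 and 4.95 CPM. The e19 libraries held 6.36, 6.94 and 7.20 CPM. Every e15 library lay below every e19 library, and among the nulls replicate 4 was as low as e15. The means ran from nulls 1 to 3 (7.68 ± 0.289 CPM, n = 3) through e19 (6.83 ± 0.432 CPM, n = 3) and nulls 4 to 6 (5.83 ± 0.890 CPM, n = 3) to e15 (5.06 ± 0.247 CPM, n = 3). No neighbours in this order differed in edgeR's test, with adjusted p = 0.443, 0.859 and 0.724 from the top down.

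**Figure D1:**
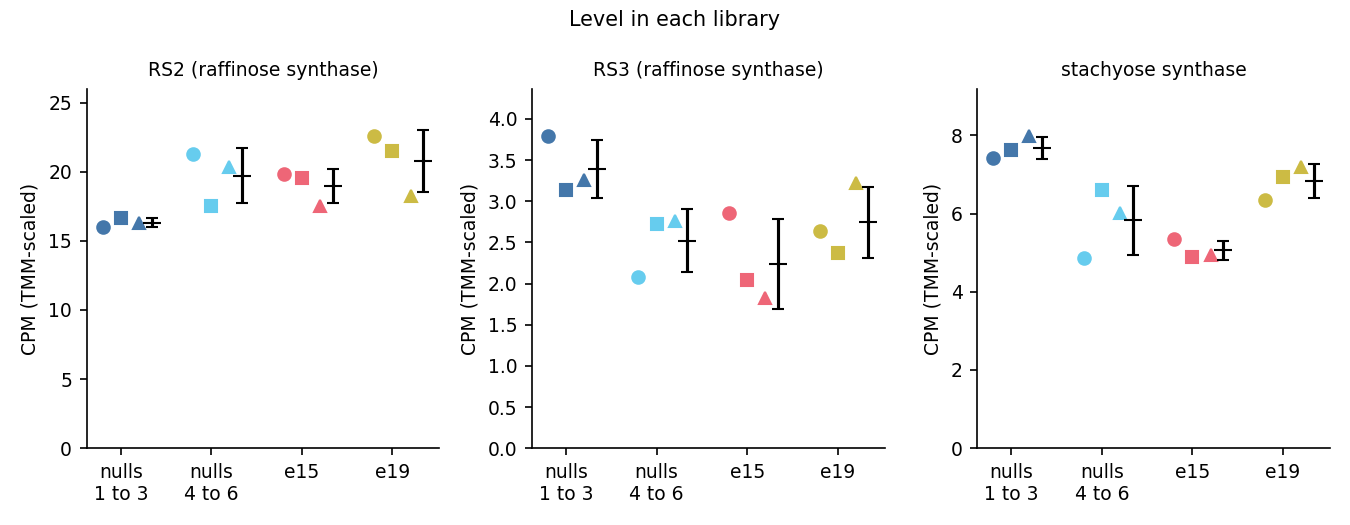
Level of each gene (vertical axis, CPM on TMM-scaled library sizes) in the 12 libraries by group (horizontal axis). Points are libraries, with circle, square and triangle for the lowest, middle and highest replicate number of a set, and bars are mean ± SD (n = 3); nulls 1 to 3 are lowest for RS2 (16.3 CPM) and highest for RS3 (3.40 CPM) and stachyose synthase (7.68 CPM).

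The first comparison the design implies is that of e15 with all 6 nulls. The stachyose synthase level was 5.06 ± 0.247 CPM in e15 and 6.75 ± 1.17 CPM in the nulls (n = 6), a log2 change of -0.42 ± 0.13 (SE). The RS3 level was 2.24 ± 0.544 CPM against 2.96 ± 0.580 CPM, a log2 change of -0.41 ± 0.19 (SE) that was -0.62 without e15 replicate 1 and -0.27 without e15 replicate 3. RS2 was at 18.97 ± 1.25 CPM against 18.0 ± 2.26 CPM, a log2 change of 0.08 with a 95% interval of -0.12 to 0.27. In edgeR's quasi-likelihood test with Benjamini-Hochberg adjustment over all 32115 genes tested, 0 of the 3 genes were called at a false discovery rate of 0.05, where 0.754% of all genes were called. The adjusted p was 0.210 for stachyose synthase, 0.519 for RS3 and 0.872 for RS2. At an unadjusted p below 0.05 there were 2 of the 3, against 9.11% of all genes. DESeq2 also called 0, where it called 323 of the 44782 genes with any count. Over all genes tested, 5.46% had a lower log2 change than stachyose synthase in this comparison.

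The e15 result for stachyose synthase turned on the handling of the nulls. With each null set given its own mean in the fit, its log2 change against the mean of both sets was -0.40 ± 0.11 (SE) and passed the test (adjusted p = 0.0324), as did 2.77% of all genes. RS3 at -0.39 (adjusted p = 0.297) and RS2 at 0.08 (adjusted p = 0.750) did not pass there. In that fit the stachyose synthase change was -0.60 ± 0.12 (SE, adjusted p = 0.000988) against nulls 1 to 3. Against nulls 4 to 6 it was -0.20, with a 95% interval of -0.46 to 0.05 (adjusted p = 0.724). RS3 behaved alike in size, at -0.60 ± 0.19 (SE, adjusted p = 0.0388) against nulls 1 to 3 and -0.17 against nulls 4 to 6, with an interval of -0.58 to 0.23. So 2 of the 3 genes were lower in e15 than in nulls 1 to 3, where 8.33% of all genes were called and 4.66% were called lower, and 0 differed from nulls 4 to 6, where 1.17% were called. RS2 was at 0.22 against nulls 1 to 3 (adjusted p = 0.138) and at -0.06 against nulls 4 to 6. Scaled by library totals alone, which put the median gene at -0.19, the log2 changes against nulls 1 to 3 were -0.79 for both RS3 (adjusted p = 0.00524) and stachyose synthase (adjusted p = 8.48e-05) and 0.03 for RS2. On that scale 20.2% of all genes were called. Without null replicate 4, the library with the lowest stachyose synthase level, that gene was called in e15 against the remaining nulls (log2 change of -0.50, adjusted p = 0.0351), where 0.746% of all genes were called. Leaving out the lowest null raises the mean of the nulls, so this call is not separate support. With any other single library left out the gene was not called (adjusted p = 0.169 to 0.629).

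In e19 against all nulls, RS2 was at 20.8 ± 2.26 CPM against 18.0 ± 2.26 CPM, a log2 change of 0.21 with a 95% interval of 0.01 to 0.40 (adjusted p = 0.698). RS3 was at -0.11, with an interval of -0.50 to 0.27 (adjusted p = 0.920). Stachyose synthase was at 0.01, with an interval of -0.25 to 0.28 (adjusted p = 0.993), which corresponds to 0.839 to 1.21 times the null level. None of the 3 was called by edgeR, where 0.0747% of all genes were called. DESeq2 also called 0 of 3, where it called 39 of the 44782 genes with any count. At an unadjusted p below 0.05 there was 1 of 3, RS2, against 7.04% of all genes. Without e19 replicate 3 the log2 changes were 0.29 for RS2, -0.24 for RS3 and -0.03 for stachyose synthase, and the adjusted p-values were 0.508, 0.787 and 0.973. With the null sets apart, RS2 was higher in e19 than in nulls 1 to 3 by 0.35 ± 0.09 (SE, adjusted p = 0.0130), 1 of 3 genes where 7.23% of all were called. That call depended on the scaling: with library totals alone, which put the median gene at -0.23 on the log2 scale here, RS2 was at 0.12 (adjusted p = 0.281), while RS3 was at -0.52 (adjusted p = 0.0421) and stachyose synthase at -0.39 (adjusted p = 0.0233), where 27.2% of all genes were called. Against nulls 4 to 6, where 0.252% of all genes were called, the log2 change of RS2 was 0.07 (adjusted p = 0.966), that of RS3 0.12 and that of stachyose synthase 0.23, with an interval of -0.02 to 0.48 (adjusted p = 0.859). Both events were set against the same nulls, so their values against nulls are not independent of each other.

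The events were also compared with each other, which does not use the level of the nulls. The spread behind the test does use them, as it was estimated over all 12 libraries. Stachyose synthase was lower in e15 than in e19 by 0.43 ± 0.15 (SE) on the log2 scale, with a 95% interval for the change of -0.75 to -0.12, but this was not called (adjusted p = 0.479). In edgeR's test it was also not called with the event libraries alone (adjusted p = 0.238) or with the nulls as 2 groups (adjusted p = 0.103). No overlap with e15 low was seen for this 1 gene of the 3, and for 6.56% of all genes. RS3 differed by -0.29, with an interval of -0.76 to 0.17 (adjusted p = 0.892). RS2 differed by -0.13, with an interval of -0.36 to 0.10 (adjusted p = 0.912). edgeR and DESeq2 each called 0 of the 3 genes. Of all genes, edgeR called 0.299% and DESeq2 called 138 of the 44782 with any count. At an unadjusted p below 0.05 there was 1 of the 3, stachyose synthase, against 6.65% of all genes. Without e19 replicate 3 the differences were -0.39 for stachyose synthase (adjusted p = 0.754), -0.16 for RS3 and -0.22 for RS2. The RS3 difference was -0.51 without e15 replicate 1 and -0.16 without e15 replicate 3, and that of RS2 was -0.08 without e15 replicate 3 and -0.06 without e19 replicate 1.

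**Figure D2:**
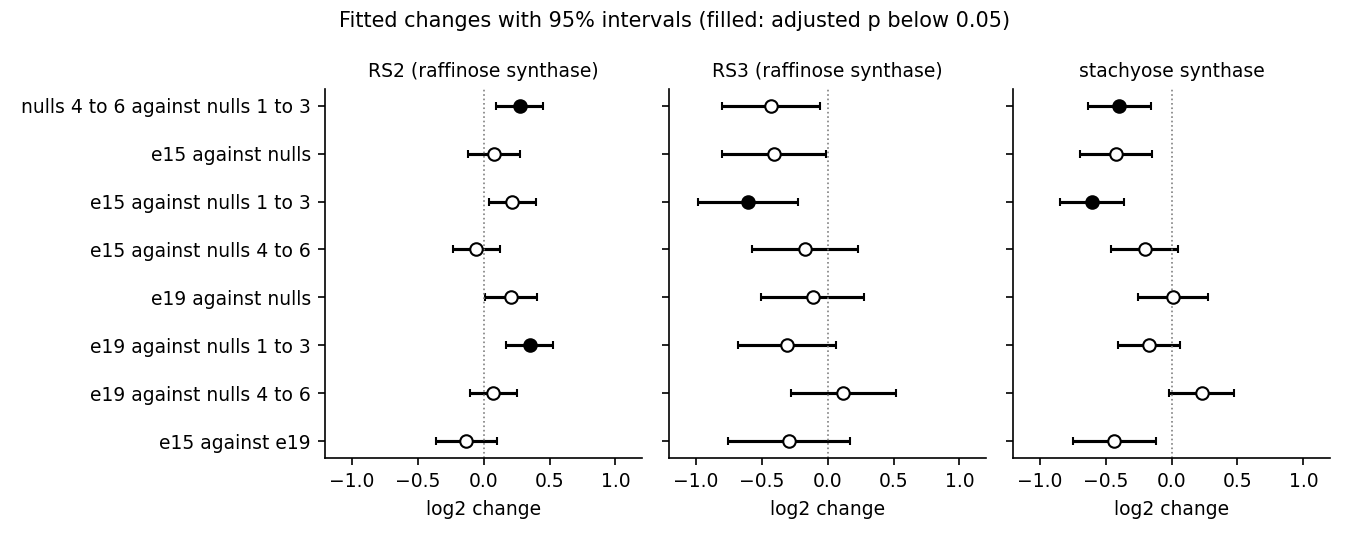
Fitted log2 change (horizontal axis) with its 95% interval for each gene in 8 comparisons (vertical axis); filled points passed the test at an adjusted p below 0.05. The 5 filled points all have nulls 1 to 3 as the reference, and none of the comparisons with all nulls, with nulls 4 to 6 or between the events has one.

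The null sets themselves differed in these genes. From nulls 1 to 3 to nulls 4 to 6, the RS2 level was higher by 0.27 ± 0.09 (SE) on the log2 scale, a rise of 20.9% (adjusted p = 0.0447). The stachyose synthase level was lower (adjusted p = 0.0262), at -0.40 ± 0.12 (SE) on that scale, or -24.1%. RS3 had a log2 change of much the same size, -0.43 ± 0.18 (SE), that did not pass the test (adjusted p = 0.150). Thus 2 of the 3 genes were called in edgeR's test, 1 in each direction, where 9.59% of all genes were called. DESeq2 called 0 of the 3, with adjusted p = 0.109 for RS2 and 0.0984 for stachyose synthase, where it called 2286 of the 44782 genes with any count. Both calls were also lost without null 1, 2, 3, 4 or 6 in turn, and that of RS2 without robust moderation (adjusted p = 0.0558). On the TMM scale the null sets did not overlap for any of the 3 genes, which was so for 29.6% of all genes tested. Of all genes, 88.4% had a lower value than RS2 in this comparison, 9.69% a lower one than RS3 and 10.6% a lower one than stachyose synthase.

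**Figure D3:**
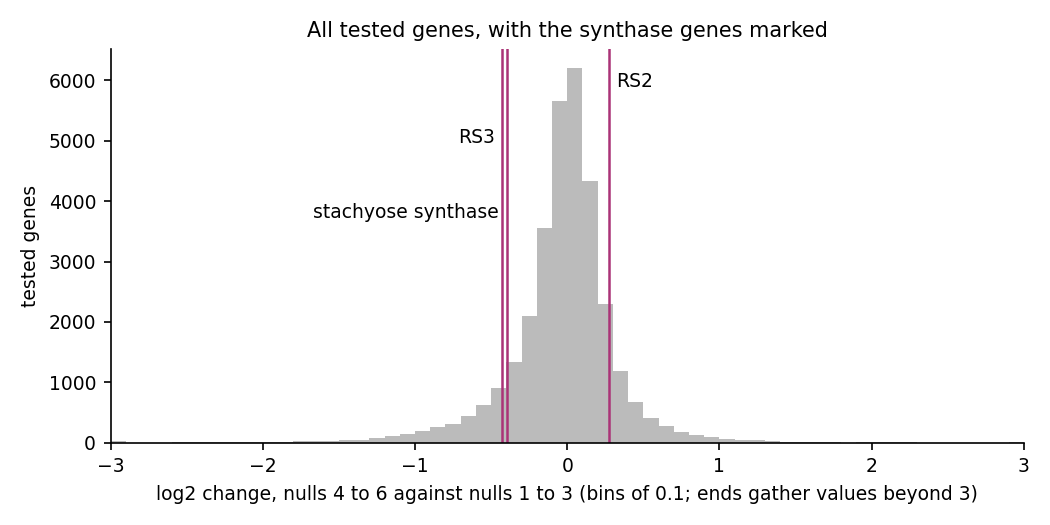
Number of tested genes (vertical axis) by log2 change of nulls 4 to 6 against nulls 1 to 3 (horizontal axis, bins 0.1 wide), with vertical lines at the 3 synthase genes. RS3 (-0.43) and stachyose synthase (-0.40) lie next to each other on the lower side and RS2 (0.27) on the upper side, all 3 inside the bulk of the distribution.

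How much of that contrast each gene carries depended on the scaling, because the scaling factors differ between the null sets. With library totals alone, all genes had a median log2 change of -0.20 between the null sets. On that scale RS2 stood at 18.0, 18.2 and 18.1 CPM in nulls 1 to 3 and at 20.3, 17.2 and 19.6 CPM in nulls 4 to 6. The null sets then overlapped for RS2, and its log2 change was 0.07 (adjusted p = 0.543). RS3 and stachyose synthase kept their direction and were further apart, at -0.62 (adjusted p = 0.0200) and -0.59 (adjusted p = 0.00161), where 23.4% of all genes were called. The change of scaling moved all genes nearly alike, so the place of each gene relative to the median gene stayed as it was. In bulk tissue, fewer cells of a type and less RNA of a gene per cell cannot be told apart.

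**Figure D4:**
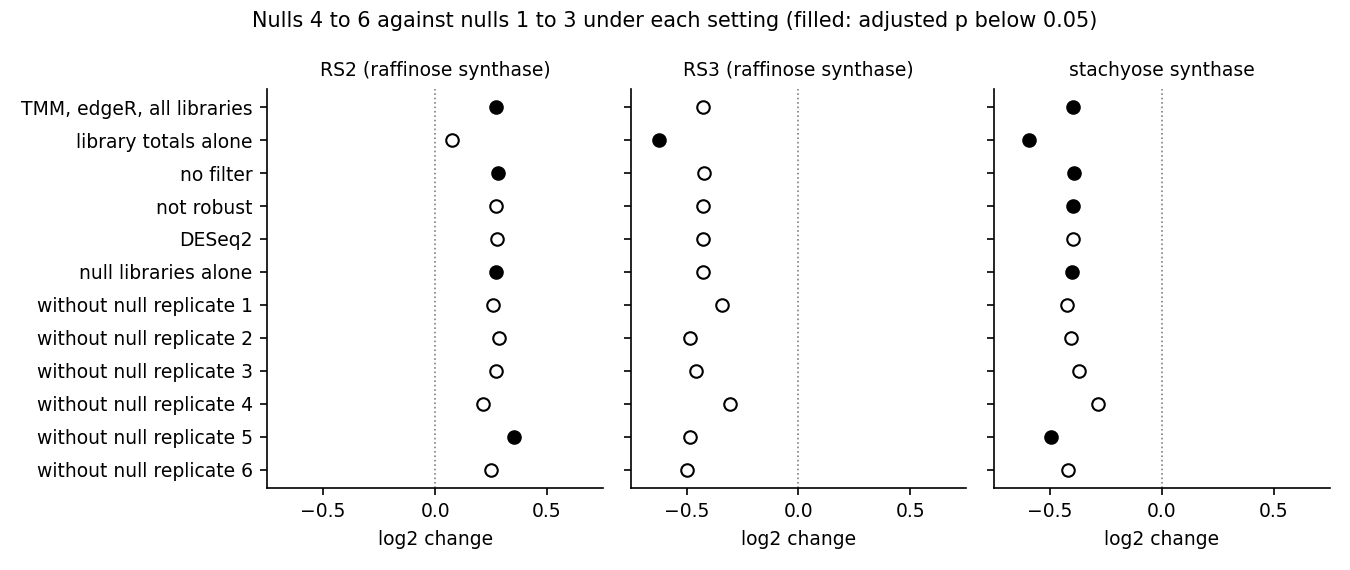
Log2 change of nulls 4 to 6 against nulls 1 to 3 (horizontal axis) for each gene under the settings named on the vertical axis; filled points have an adjusted p below 0.05. All points keep their side of 0; RS2 comes closest to 0 with library totals alone (0.07), where RS3 (-0.62) and stachyose synthase (-0.59) lie farthest from it.

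The ratio of the read counts of 2 genes within a library is free of any scaling. Its size depends on gene lengths, so it is read here only across libraries, as a description without a test. It combines counts already described above, and separation of the sets was not counted over other gene pairs. A lack of overlap in it is therefore not a further result about these genes. Stachyose synthase had 0.464, 0.459 and 0.490 reads per RS2 read in nulls 1 to 3. In nulls 4 to 6 the values were 0.228, 0.378 and 0.295. All nulls of the first set were above all of the second, with means of 0.471 ± 0.0168 and 0.301 ± 0.0750 (n = 3 each). The ratio was 0.269, 0.250 and 0.282 in e15. It was 0.281, 0.324 and 0.395 in e19. Every event library lay below nulls 1 to 3 and within or near the range of nulls 4 to 6, and e19 replicate 3 came closest to nulls 1 to 3.

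RS3 reads per RS2 read, which compare the 2 raffinose synthases, followed the same order. The values were 0.237, 0.188 and 0.200 in nulls 1 to 3 and 0.0978, 0.155 and 0.136 in nulls 4 to 6. They were 0.144, 0.104 and 0.104 in e15 and 0.117, 0.110 and 0.176 in e19. Nulls 1 to 3 were again above each of the other 9 libraries. By contrast, stachyose synthase reads per RS3 read had means of 2.28 ± 0.281 in nulls 1 to 3, 2.31 ± 0.128 in nulls 4 to 6, 2.33 ± 0.426 in e15 and 2.53 ± 0.363 in e19 (n = 3 each). These ranges overlapped in all 4 sets, from 1.87 to 2.93 over the 12 libraries.

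**Figure D5:**
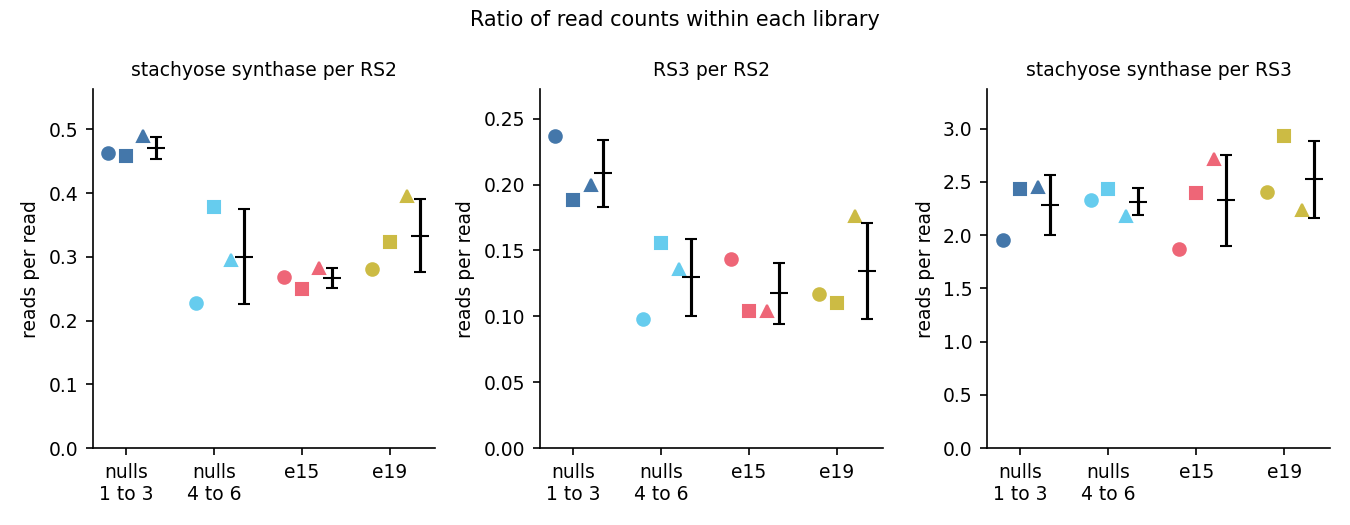
Ratio of read counts of 2 genes within a library (vertical axis, reads per read) in the 12 libraries by set (horizontal axis); points are libraries and bars are mean ± SD (n = 3). Stachyose synthase per RS2 and RS3 per RS2 are highest in nulls 1 to 3 (0.471 and 0.208), while stachyose synthase per RS3 overlaps in all sets (2.28 to 2.53).

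Likeness of pattern was measured as the root mean square difference between log2 CPM profiles over the 12 libraries, each centred on its own mean. A profile without any variation would differ by 0.160 from RS2, 0.291 from RS3 and 0.249 from stachyose synthase. RS3 and stachyose synthase differed by 0.166 in this measure, and 33 of the 32114 other tested genes were nearer to RS3 than stachyose synthase was. In the other direction, 217 genes were nearer to stachyose synthase than RS3 was. RS2 differed from RS3 by 0.396 and from stachyose synthase by 0.356, which left 26410 and 24836 genes nearer to RS2. Genes that hardly vary are among those counted as nearer to RS2, since a profile without variation is nearer to it than either gene. Such a profile is farther from RS3 and from stachyose synthase than they are from each other, so this does not hold for their ranks. The ranks were not tested and alone do not show a specific likeness. These profiles share libraries and scaling factors, and the split of the nulls weighs on all of them.

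Among the 17355 genes whose mean level reached 5 CPM, the nearest to RS2 was Glyma.06G290100, at a difference of 0.0577, with 74.8 CPM in nulls 1 to 3, 88.3 in nulls 4 to 6, 85.8 in e15 and 89.7 in e19. Next came Glyma.17G186600 (0.0586) and Glyma.11G247700 (0.0596). The nearest to RS3 was Glyma.02G047600, at 0.124, with 20.1 CPM in nulls 1 to 3, 14.2 in nulls 4 to 6, 12.6 in e15 and 15.6 in e19, followed by Glyma.08G180000 (0.133) and Glyma.07G201600 (0.141). The nearest to stachyose synthase was Glyma.20G144700, at 0.103, with 22.0 CPM in nulls 1 to 3, 17.0 in nulls 4 to 6, 13.6 in e15 and 17.7 in e19. Glyma.17G158300 (0.120) and Glyma.16G067000 (0.121) followed. Of these 9 genes, Glyma.20G144700 had whole counts in every library and the others did not.

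The identifiers number genes along each chromosome, so the tested neighbours of each gene could be examined without coordinates. None of the 20 nearest tested genes (10 on each side) of RS2, RS3 or stachyose synthase was called in e15 against nulls, in e19 against nulls or in e15 against e19. With 0.754%, 0.0747% and 0.299% of all genes called there, 0 of 20 is not a result about these neighbours. The nearest gene called in e15 against nulls was 82 tested genes from RS2, 19 from RS3 and 90 from stachyose synthase. Between the null sets, 3 of the 20 neighbours of RS2 were called, 2 of those of RS3 and 2 of those of stachyose synthase, beside the 9.59% called among all genes.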

How the data were processed

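The authors deposited 1 table of estimated counts per gene and library, and its columns were matched to samples by the library names in the labels. Per the labels' protocols, the libraries were stranded mRNA libraries sequenced as single reads of 100 bp. The aligner and counting program, and whether counting used strand, are not stated in the labels or the table. From the deposited estimated counts, rounded to whole numbers, filterByExpr kept 32115 of the 44782 genes with any count. TMM factors, edgeR 4.0.16's robust quasi-likelihood test (R 4.3.3) and Benjamini-Hochberg adjustment over all tested genes followed, with 3 group means over 12 libraries. Comparisons with a null set used 4 group means. Standard errors were derived from the F statistic. The log2 profiles used a prior count of 2. Alternatives were library totals alone, no filter, no robust moderation, DESeq2 1.42.0, other handling of the nulls, a replicate block and leaving out each library. All genes and lists were chosen with earlier results of these data known. Named genes are the 3 synthases and, for each, the 3 genes of at least 5 CPM nearest in profile. The planned lists of other pathway genes and of tissue markers rest on descriptions and were not analysed here, and no sequences were used. The table has 0 columns without a sample. The 3 synthases were read at 42 to 462 counts per library, and counting error alone is 12.9% for RS3.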

Additional observations from a re-analysis of the deposited data

How the results depend on the processing

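Of 234 values recomputed for the 3 genes, 197 kept direction and side of the threshold, 14 lost a call, 13 gained one and 11 changed sign, 1 of these with a gained call. With library totals alone the log2 change of Glyma.06G179200 (RS2) was -0.0087 in e15 and that of Glyma.19G217700 (stachyose synthase) -0.12 in e19 against nulls, where the median gene was at -0.096 and -0.13, and between the null sets RS2 was at 0.075 and Glyma.05G003900 (RS3) at -0.62. Between the null sets RS2 lost its call without robust moderation (0.27, adjusted p = 0.0558) and with DESeq2 (0.28), as did stachyose synthase with DESeq2 (-0.40). With the nulls as 2 groups stachyose synthase was at -0.40 in e15. Against nulls 1 to 3, RS3 (-0.60) and stachyose synthase (-0.60) were called in e15 and RS2 (0.35) in e19, where stachyose synthase was at -0.17. With library totals there, a setting chosen after seeing the data, RS3 and stachyose synthase were at -0.79 and -0.79 in e15 and at -0.52 and -0.39 in e19. Against nulls 4 to 6, RS2 was at -0.057 in e15 and RS3 at 0.12 in e19. The cause was not tested.

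Same-numbered libraries did not deviate together more than others (correlations of -0.0464 to 0.0710 across genes, against -0.1000 to 0.0812 for other numbers). The check thus gave no sign that the numbers pair the samples. With so few libraries per group it cannot exclude pairing, and of the nulls it covered nulls 1 to 3 only. The replicate block leaves nulls 1 to 3 alone as the reference and gave log2 changes of -0.61 for RS3 and -0.60 for stachyose synthase in e15, and of 0.34 for RS2 and -0.17 for stachyose synthase in e19.

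Leaving out 1 library at a time, the stachyose synthase change ranged from -0.50 to -0.37 in e15 and from -0.065 to 0.067 in e19 against nulls. That of RS3 ranged from -0.62 to -0.27 in e15. In e15 against nulls stachyose synthase was called only without null 4 (adjusted p = 0.0351, otherwise 0.169 to 0.629). Between the null sets stachyose synthase ranged from -0.50 to -0.28 (adjusted p = 0.0183 to 0.203) and RS2 from 0.22 to 0.35 (0.0195 to 0.239). Both null calls were lost without null 1, 2, 3, 4 or 6, which leaves fewer samples.

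Counts of all genes called moved by over 1.5 times as follows. Against 242 in e15 it was 2350 with the block, 888 with the nulls as 2 groups, 2676 against nulls 1 to 3 (6484 with library totals), 376 against nulls 4 to 6, and 106, 129 and 82 without e15 replicate 1, 2 and 3. Against 24 in e19 it was 39 with DESeq2, 1945, 148, 2322 (8746) and 81 with the same handling in turn. Against 96 between the events it was 292 with the block, 341 with the nulls as 2 groups and 145 with the event libraries alone. Against 3079 between the null sets it was 7523 with library totals, 5004 with the nulls alone and 1692 to 1922 without null 1, 2, 3 or 4. With library totals the share of higher calls between the null sets was 6.83% against 47.0%.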
